A study of Mus musculus with 4 samples.

Results

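Genes of 13 solute carrier (Slc) families that carry sugars, amino acids, peptides, monocarboxylates and vitamins across cell membranes were followed in mouse small-intestinal organoids. The members are all genes whose symbol is Slc1, 2, 5, 6, 7, 15, 16, 19, 23, 36, 38, 46 or 52 followed by the letter a and a number. This rule reads symbols only, but it was set with earlier results of these data known. The annotation holds 110 such genes, and 109 of them were among the 30284 genes with values (Slc6a16 was not analysed here). Of these 109 members, 73 had enough counts to be tested. The organoids were grown in Matrigel from small-intestinal crypts of 2 male C57BL/6J mice with an age label of 9 weeks, and no genotype was altered. Crypts of each mouse received either DMSO, the vehicle, or 2 uM GW3965, a man-made compound that activates the liver X receptors (LXR), for 6 h. The design therefore has 4 RNA-seq libraries, with 1 DMSO and 1 GW3965 library from each mouse, and asks what an LXR agonist changes in epithelium kept in culture.

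Absorptive cells of the small intestine take up nutrients with carriers in the brush border and release them to the blood with other carriers in the basolateral membrane. Sodium-coupled carriers such as those for glucose, neutral amino acids and vitamins can concentrate their substrate, whereas facilitative carriers such as the GLUT proteins let it run down its gradient. Several amino acid carriers work only with a partner protein that brings them to the membrane. LXR are nuclear receptors for oxidised sterols that raise genes of sterol export and fatty acid synthesis, and they bind DNA as heterodimers with the retinoid X receptor.

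The libraries held 16430757 to 19352999 gene counts. The sterol exporter Abca1, a textbook LXR target, had 9 and 33 counts in DMSO of mouse 1 and mouse 2 and 702 and 1152 counts with GW3965, so the treatment labels matched this target in both mice. The GW3965 library of mouse 1 stood apart, since 14.01% of its counts came from the mitochondrial genome against 7.60%, 9.43% and 8.74% in DMSO of mouse 1, DMSO of mouse 2 and GW3965 of mouse 2. Markers of other cells were present in all 4 libraries. The summed level of 10 immune markers was 404.2 to 417.6 TPM (a kallisto level per transcript length, relative to the library's total), and 8 markers of mesenchyme and endothelium summed to 22.9 to 26.1 TPM. Cd74 held most of the immune sum. With GW3965, 9 of the 10 immune markers had log2 fold changes above 0 (median 0.45), none of them called, while 50.0% of all tested genes were below 0. The mice disagreed: Ptprc, Cd3e, Cd3g, Gzma, Cd79a and Nkg7 were above 0 in mouse 1 and below 0 in mouse 2. Cd74 and Lyz2 went the other way, Cd8a was above 0 in both, and Itgam had no counts in mouse 2. In the GW3965 library of mouse 1, Gzma stood at 124.0 CPM (counts scaled to library size, here with TMM factors) beside 39.8 to 61.0 in the others, and Cd3g and Cd8a at 11.0 and 9.32 CPM beside 3.88 to 5.83 and 3.71 to 4.31. Of the endothelial markers, Cdh5 had 1 or 2 counts in each library, whereas Pecam1 had 260 and 270 counts in DMSO of mouse 1 and mouse 2 and 423 and 324 with GW3965 (unadjusted p = 0.0249 and adjusted p = 1 from edgeR's quasi-likelihood test). The part of these cells in the results below was not tested. Markers of 5 colon genes summed to 6.03 to 9.72 TPM, and the ileal bile acid binding protein gene Fabp6 was at 170.8 to 353.9 TPM, so the libraries carried small-intestinal marker genes, although the labels describe RNA extraction from colonic material. In bulk RNA, fewer cells of a type and less RNA per cell cannot be told apart.

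In DMSO, 27 of the 109 members had a mean level of 10 TPM or more, 28 lay between 1 and 10 TPM, and 54 were under 1 TPM. The 10 members with the highest levels held 66.0% of the summed TPM of all members, and Slc2a1 alone held 20.4%. At the other end, 9 members had no count in any of the 4 libraries. They were Slc1a6, Slc6a11, Slc6a21, Slc7a12, Slc15a5, Slc16a14, Slc36a2, Slc36a3 and Slc46a2, named after their values were seen. A count of 0 allows up to 3 counts, which is 0.154 to 0.183 CPM depending on the library, and this limit covers counting error only.

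**Figure D1:**
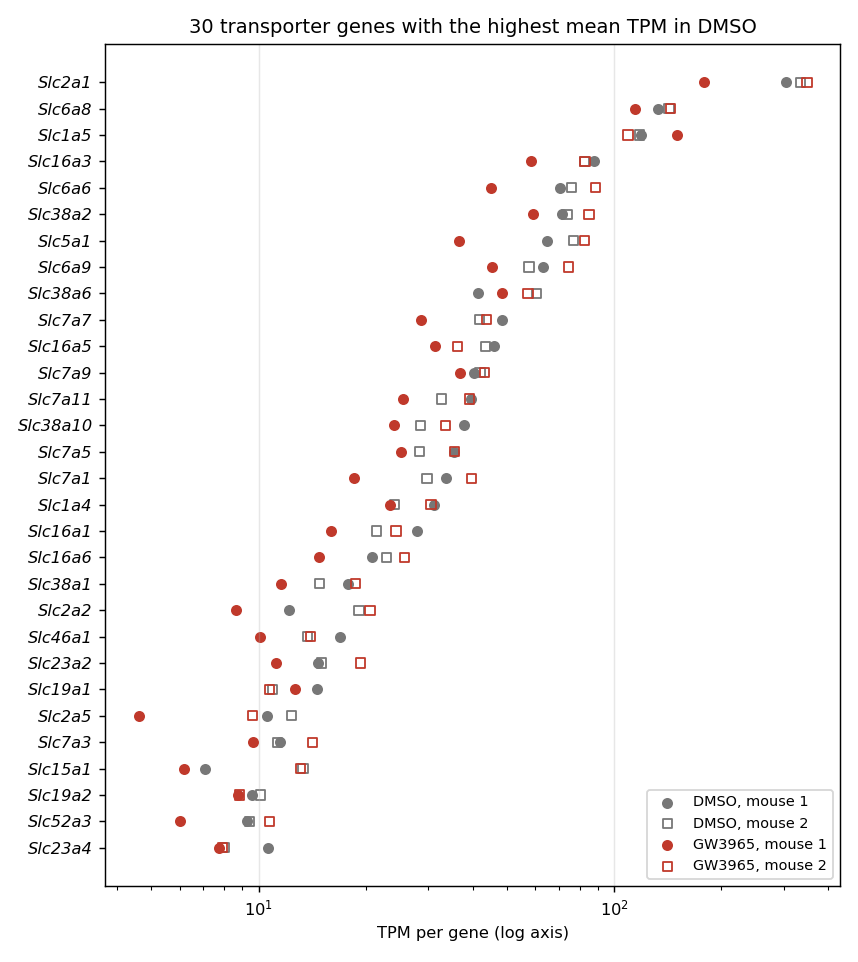
Level of the 30 transporter genes with the highest mean TPM in DMSO, in each of the 4 libraries, on a log axis; grey is DMSO, red is GW3965, filled circles are mouse 1 and open squares are mouse 2. Slc2a1 lies above all others at 179.0 to 348.4 TPM, and the filled red circles of GW3965 in mouse 1 lie at the left of most rows.

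Among sugar carriers, the facilitative glucose transporter Slc2a1 (GLUT1, which in most tissues supplies basal glucose uptake) had the highest level of all members, with 304.4 and 334.4 TPM in DMSO of mouse 1 and mouse 2 and 179.0 and 348.4 TPM with GW3965. A short transcript of 661 bases, Slc2a1-202, held 26.8% and 33.0% of the DMSO values, from 706.4 of 9449 and 977.8 of 10864 counts. As CPM, Slc2a1 in mouse 1 was at 485.3 in DMSO and 383.3 with GW3965. Slc5a1 (SGLT1), the sodium-coupled glucose and galactose carrier of the brush border, followed with 64.6 and 76.8 TPM in DMSO and 36.6 and 82.4 TPM with GW3965. In both genes the GW3965 library of mouse 1 was the low one, while the other 3 libraries lay close together. Slc2a2 (GLUT2), which releases sugars at the basolateral side, had 15.7 ± 4.96 TPM in DMSO (SD, n = 2). Slc2a5 (GLUT5), the fructose carrier, had 11.4 ± 1.29 TPM (SD, n = 2), a gap to Slc2a2 within the spread between the DMSO libraries. A non-coding transcript of Slc2a5, Slc2a5-204, held 54.8% and 49.0% of that TPM in DMSO, so the coding level was lower. Slc2a7 (GLUT7) was at 1.05 ± 0.267 TPM, Slc2a3 (GLUT3, best known from neurons) at 0.161 ± 0.012 TPM, and Slc2a4 (GLUT4, the insulin-regulated carrier of muscle and fat) at 0.238 ± 0.078 TPM (SD, n = 2 each). The GLUT carriers thus spanned from the highest of all members to genes under 1 TPM, of which Slc2a3 still had 14 to 41 counts in each library.

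The amino acid carriers with the highest levels were Slc6a8, Slc1a5, Slc6a6, Slc38a2 and Slc6a9. Slc6a8, the creatine carrier, had 137.5 ± 7.07 TPM in DMSO, and Slc1a5 (ASCT2), an exchanger of glutamine and other small neutral amino acids, had 118.2 ± 0.82 TPM (SD, n = 2 each). Slc6a6, the taurine carrier, stood at 73.2 ± 4.02 TPM and Slc38a2 (SNAT2), a sodium-coupled carrier of small neutral amino acids that cells raise when amino acids run short, at 72.4 ± 1.79 TPM (SD, n = 2 each). These 2 genes and Slc5a1 were not separated beyond the spread between the DMSO libraries. Slc6a9 (GLYT1), a glycine carrier, had 60.2 ± 3.74 TPM and Slc38a6 had 50.9 ± 13.4 TPM (SD, n = 2 each). Both values are uncertain, because 26.4% of the 31-base words of Slc6a9 transcripts also occur in other genes, mainly Ccdc24 on the opposite strand, and 38.1% of those of Slc38a6, mainly Noct.

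The carriers that form heterodimers were also well represented. Slc7a9, which imports cystine and basic amino acids at the brush border with Slc3a1, had 41.1 ± 1.11 TPM, and Slc7a7, its basolateral counterpart for basic amino acids with Slc3a2, had 45.1 ± 4.65 TPM (SD, n = 2 each). Slc7a11 (xCT), which exchanges cystine for glutamate, had 36.2 ± 4.86 TPM, Slc7a5 (LAT1) 31.9 ± 5.07 TPM and Slc7a8 (LAT2) 2.61 ± 0.641 TPM (SD, n = 2 each). The partner Slc3a2 itself was at 168.3 ± 7.81 TPM and Slc3a1 at 35.2 ± 6.74 TPM (SD, n = 2 each). The main brush-border carrier of neutral amino acids, Slc6a19, had only 5.69 ± 0.530 TPM (SD, n = 2). The cationic carrier Slc7a1 (CAT1) was at 31.7 ± 2.71 TPM, the aromatic amino acid carrier Slc16a10 at 4.81 ± 0.583 TPM, the glutamate carrier Slc1a1 at 1.88 ± 0.129 TPM, the proton-coupled carrier Slc36a1 at 6.83 ± 0.020 TPM and the broad carrier Slc6a14 at 0.194 ± 0.033 TPM (SD, n = 2 each). The value of Slc1a1 is uncertain, as 42.2% of its 31-base words are shared, nearly all with the antisense gene 4430402I18Rik.

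Of the proton-coupled oligopeptide carriers, Slc15a1 (PEPT1), the main route for dietary di- and tripeptides, had 7.06 and 13.3 TPM in DMSO of mouse 1 and mouse 2. Among monocarboxylate carriers, Slc16a3 (MCT4), known for lactate release, had 85.2 ± 3.85 TPM and exceeded Slc16a1 (MCT1) at 24.6 ± 4.52 TPM (SD, n = 2 each). Their partner Bsg (basigin), which brings both to the membrane, was at 476.7 ± 53.7 TPM (SD, n = 2). Slc16a5 had 44.7 ± 1.63 TPM, and Slc5a8, a sodium-coupled carrier of short-chain fatty acids, had 2.30 ± 0.672 TPM (SD, n = 2 each). The transcript Slc16a5-209 of 516 bases held 32.2% and 31.5% of the Slc16a5 TPM in DMSO of mouse 1 and mouse 2. These shares came from 89.3 of 1080 and 85.0 of 1013 counts.

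The vitamin carriers stood lower. Slc46a1, the proton-coupled folate carrier, had 15.3 ± 2.27 TPM and Slc19a1, the reduced folate carrier, 12.8 ± 2.57 TPM (SD, n = 2 each). For vitamin C, Slc23a2 had 14.9 ± 0.237 TPM and Slc23a1, regarded as the brush-border form, 0.890 ± 0.480 TPM (SD, n = 2 each). For thiamine, Slc19a2 had 9.85 ± 0.367 TPM and Slc19a3 0.222 ± 0.146 TPM, and for riboflavin Slc52a3 had 9.35 ± 0.129 TPM and Slc52a2 7.12 ± 0.740 TPM (SD, n = 2 each). In the vitamin C and thiamine families, then, the form usually assigned to the whole body exceeded the form usually assigned to absorption. Slc5a6 (SMVT), the sodium-dependent carrier of biotin, pantothenate and lipoate, had 1.85 ± 0.147 TPM in DMSO (SD, n = 2) and ranked 50 of the 109 members.

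GW3965 was then compared with DMSO over all 13602 tested genes with edgeR's quasi-likelihood test and Benjamini-Hochberg adjustment, calling a gene at an adjusted p under 0.05. Without a term for the mouse, 0 of the 73 tested members were called, against 8 of all genes (0.0588%). At an unadjusted p under 0.05 the members numbered 1 and all genes 143 (1.05%). With the mouse as a block, 1 member was called, Slc5a6, which was lower, against 48 of all genes (0.353%), of which 17 were lower (0.125%). DESeq2 without a block also called 1 member, again Slc5a6. The median log2 fold change of the members was -0.049 beside 0 for all tested genes, with 31 members above and 42 below 0, or 57.5% below beside 50.0% of all genes. Both GW3965 libraries lay above both DMSO libraries in 5 members (6.85%) and below both in 11 (15.1%), together 16 (21.9%). Of all genes, 18.5% did so (9.28% above and 9.18% below). Over both directions the share was near that of all genes.

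Slc5a6 was lower with GW3965 in both mice, and the edgeR fit with the mouse as a block called it. It is encoded on the minus strand at chr5:31036036-31048924 (GRCm38). It had 107 and 100 counts in DMSO of mouse 1 and mouse 2 and 24 and 15 counts with GW3965. As normalised CPM these were 5.50 and 5.30 in DMSO and 1.46 and 0.787 with GW3965. Both treated libraries lay far below both vehicle libraries, whose values nearly coincided. The mean fell from 5.40 ± 0.137 to 1.12 ± 0.477 CPM (SD, n = 2 each), which is 4.80-fold lower. The log2 fold change was -2.27 ± 0.39 (SE), with an interval at 95% of -3.13 to -1.41. The quasi-likelihood test gave an adjusted p = 0.165 without the block, where Slc5a6 ranked 14 of all genes by p, and an adjusted p = 2.03e-05 from edgeR with the block, whose fit has 1 residual degree of freedom and takes the spread of Slc5a6 from the trend over all genes. DESeq2 gave an adjusted p = 0.00376 without a block and 0.151 with one, and limma-voom 0.110, so the call depended on the model while the direction did not. Leaving out 1 library at a time gave log2 fold changes from -2.77 to -1.88 and edgeR adjusted p-values from 0.00119 to 0.0519.

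The same reads were also divided between the transcripts, within the limits of low counts. The estimated counts of Slc5a6-201 were 106.5 and 62.0 in DMSO of mouse 1 and mouse 2 and 4.82 and 0.535 with GW3965. Those of Slc5a6-202, which starts further inside the locus, were 0 and 38.01 in DMSO and 19.04 and 14.3 with GW3965. Slc5a6-201 was low in both treated libraries, whereas Slc5a6-202 had no common direction in the 2 mice, and the division of reads between transcripts that share most of their exons is an estimate. Slc5a6 overlaps Atraid on the opposite strand over 396 exon bases, and the sources used here do not say whether counting used strand. These bases lie in the first exons of Slc5a6-201 and Slc5a6-202, which differ between these transcripts. The same uncertainty therefore applies to the division of reads between them. None of the 31-base words of the Slc5a6 transcripts in the files (0%) occurs in a transcript of another gene there, on either strand. That search does not cover Atraid transcripts over these exon bases, since any in the files would have shared words. Whether reads of such Atraid transcripts were counted to Slc5a6 was not tested. Atraid, looked at after the values were seen, had 128 and 291 counts in DMSO and 143 and 169 with GW3965, with a log2 fold change of -0.32 ± 0.35 (SE). It moved in opposite directions in the 2 mice, unlike Slc5a6. The stretch between the RefSeq start of Slc5a6-202 and the RefSeq start of Atraid is shown because both genes begin around it. It is chr5:31048563-31048639 on the minus strand (RefSeq, GRCm38.p6), 77 bases that also lie in a retained-intron transcript of Atraid, and the capitals mark a GC box (GGGCGG on either strand).
Slc5a6: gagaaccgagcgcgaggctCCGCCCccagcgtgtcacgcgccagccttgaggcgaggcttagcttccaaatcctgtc
A GC box was found in 32.7% of the 32851 RefSeq windows of 250 bases before a start. The repeat bound by LXR (DR4, 2 copies of AGGTCA with 4 bases between them), searched on both strands with up to 3 mismatches and present in 18.5% of windows, had no match in the windows of Slc5a6, which belong to the starts at 31048562 and 31048079 and not to that of Slc5a6-201 at 31048924. The sterol regulatory element TCACNCCAC, which 1.05% of windows hold, had none there either. This says only that these letters are not in these windows.

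**Figure D2:**
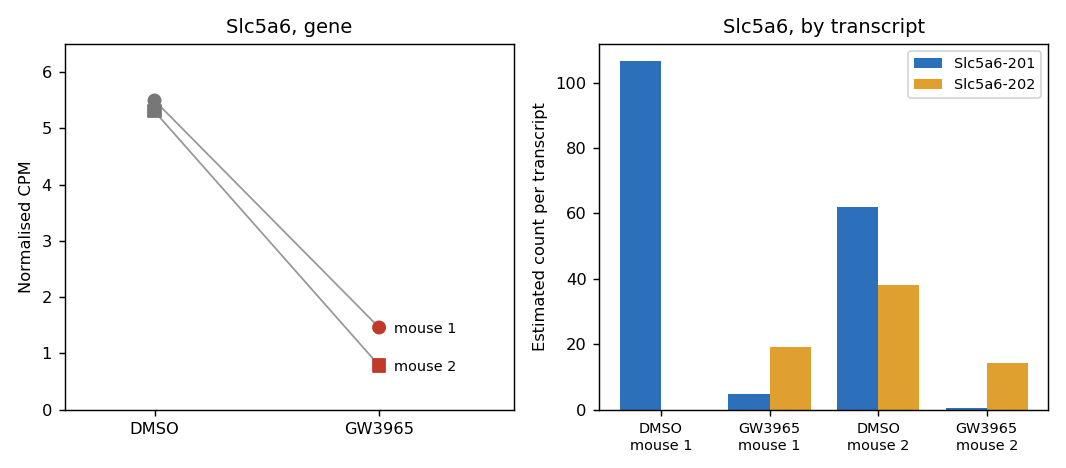
Slc5a6 in the 4 libraries: left, normalised CPM of the gene with a line joining the libraries of one mouse (circles mouse 1, squares mouse 2); right, estimated counts of its transcripts Slc5a6-201 and Slc5a6-202 as bars from 0. The gene lies at 5.50 and 5.30 CPM in DMSO and at 1.46 and 0.787 CPM with GW3965.

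No other member came near the threshold. The next smallest p-values belonged to Slc2a6, Slc2a7, Slc16a5, Slc16a11, Slc1a2, Slc2a10, Slc2a3, Slc7a7 and Slc46a1, each with an adjusted p of 1 from edgeR's quasi-likelihood test. Slc2a6 (GLUT6, an intracellular sugar carrier) had 6.93 and 6.58 CPM in DMSO and 4.57 and 4.98 CPM with GW3965, a log2 fold change of -0.50 ± 0.26 (SE). Slc2a7 had 1.28 and 1.01 CPM in DMSO and 0.731 and 0.472 CPM with GW3965, a log2 fold change of -0.93 ± 0.51 (SE). Slc16a5 had 55.5 and 53.7 CPM in DMSO and 45.7 and 44.6 CPM with GW3965, a log2 fold change of -0.27 ± 0.18 (SE). In these 3 genes the treated libraries lay below the vehicle libraries, as in Slc5a6, but their intervals at 95% did not exclude no change. In the order named, these were -1.09 to 0.09, -2.07 to 0.2 and -0.67 to 0.12. Slc2a3 and Slc16a11 were set apart by 1 library. Slc2a3 had 0.976 and 0.901 CPM in DMSO and 2.50 and 0.734 CPM with GW3965, and Slc16a11 had 6.16 and 6.26 CPM in DMSO and 10.4 and 6.30 CPM with GW3965. In both, the GW3965 library of mouse 1 alone was high.

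For the carriers of absorption, the intervals set how large a change could have gone unseen. The 27 members at 10 TPM or more had log2 fold changes between -0.27 and 0.18. Slc5a1 had a log2 fold change of -0.21 with an interval at 95% of -0.90 to 0.48, Slc2a2 of -0.11 with -0.85 to 0.62, and Slc2a5 of -0.26 with -0.76 to 0.25. Among amino acid carriers, Slc7a9 had -0.03 with -0.44 to 0.38, Slc6a19 0.11 with -0.49 to 0.70 and Slc1a5 0.14 with -0.41 to 0.69. For the peptide carrier Slc15a1 the value was -0.05 with -0.81 to 0.72. Among the other vitamin carriers, Slc46a1 had -0.24 with -0.67 to 0.19, Slc19a1 -0.05 with -0.56 to 0.45, Slc19a2 -0.07 with -0.47 to 0.34, Slc23a1 0.36 with -0.61 to 1.34, Slc23a2 0.08 with -0.38 to 0.54, Slc52a2 -0.03 with -0.51 to 0.45 and Slc52a3 -0.14 with -0.66 to 0.38. The intervals of these 7 genes lie above that of Slc5a6. That of the low-count gene Slc19a3, 0.01 with -1.56 to 1.58, overlaps it. Differences between genes were not tested.

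**Figure D3:**
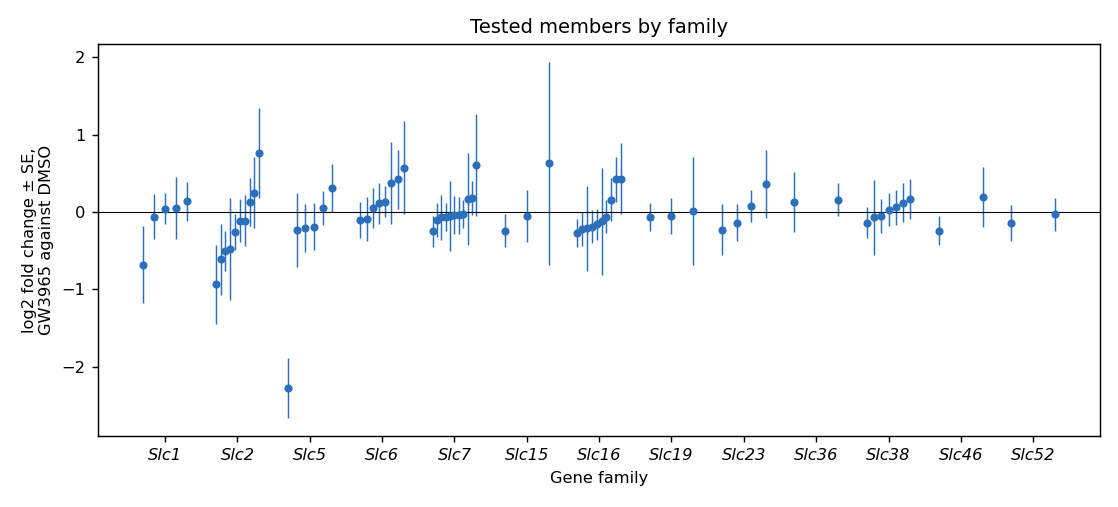
Log2 fold change of GW3965 against DMSO for the 73 tested members, grouped by family, with bars of 1 SE from the edgeR fit without a block. Slc5a6 in the Slc5 family lies at -2.27, and the other members lie between -0.93 and 0.76.

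The 2 mice did not show the same treatment difference in the abundant carriers. Of the 27 members at 10 TPM or more, 22 (81.5%) were lower with GW3965 in mouse 1, with a median log2 difference of -0.31, beside 56.9% and -0.06 for the 6746 abundant genes overall. In mouse 2, 11 of the 27 (40.7%) were lower, with a median of 0.06, beside 53.3% and -0.01. Members took 0.430% and 0.365% of the gene counts in DMSO and GW3965 of mouse 1 and 0.436% and 0.458% in mouse 2. The cationic carrier Slc7a1 shows the pattern: it had 216.8 and 203.1 CPM in DMSO of mouse 1 and mouse 2 and 141.9 and 256.7 CPM with GW3965, so the treated libraries lay on either side of the vehicle libraries. The low value of Slc7a1 belonged to the GW3965 library of mouse 1, which is the one with the high mitochondrial share. That library also had the highest CPM of the leukocyte gene Ptprc, at 21.9 beside 10.7 to 12.7 in the others. The part of these in the result was not tested. The sign of the log2 difference was the same in both mice in 24 members (32.9%), near the 33.5% of all tested genes.

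**Figure D4:**
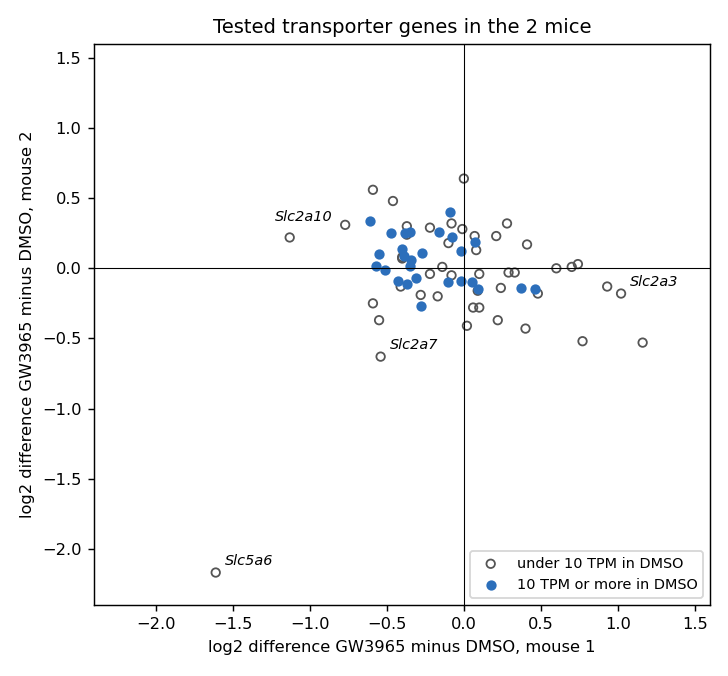
Log2 difference of GW3965 minus DMSO, on log2(CPM + 0.5), in mouse 1 (horizontal) and mouse 2 (vertical) for the 73 tested members; filled points have 10 TPM or more in DMSO. Slc5a6 lies alone at -1.61 and -2.17, and most filled points lie left of 0 for mouse 1 and around 0 for mouse 2.

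The same library differed in transcript composition. Retained-intron transcripts, annotated as not coding for protein, held 15.6% of the members' summed TPM in GW3965 of mouse 1, beside 6.55% and 8.26% in DMSO of mouse 1 and mouse 2 and 6.20% in GW3965 of mouse 2. Over all transcripts the shares were 4.53% in that library and 3.77% to 4.14% in the others. The members' summed TPM was 1557.4 and 1573.2 in DMSO of mouse 1 and mouse 2 and 1171.9 and 1673.6 with GW3965. Slc1a5 was among the members that differed in GW3965 of mouse 1, and its transcript Slc1a5-202 held a large part of the retained-intron sum. Its coding transcript Slc1a5-201 had 64.0 and 38.7 TPM in DMSO of mouse 1 and mouse 2 and 26.2 and 47.1 TPM with GW3965, while the retained-intron transcript Slc1a5-202 had 38.1 and 56.7 TPM in DMSO and 79.9 and 45.4 TPM with GW3965. So the gene total of Slc1a5 was highest in GW3965 of mouse 1, at 150.0 TPM, while its coding transcript was lowest there. In Slc7a5 the gene total was lowest in that library, at 25.1 TPM beside 28.3 to 35.6 TPM, and its retained-intron transcript Slc7a5-202 took 17.0% of the gene's TPM in that library and 1.14% to 2.68% in the others. These transcripts were looked at after the values were seen, and their levels rest on 1 library.

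The mice themselves differed in 4 of the 73 tested members (5.48%), beside 93 of 13602 genes (0.684%), by edgeR's quasi-likelihood test with treatment as a covariate. At an unadjusted p under 0.05 they differed in 8 members (11.0%), beside 5.01% of all genes. The fit also has 1 residual degree of freedom, so its p-values take each gene's spread from the trend over all genes, and with 1 animal on each side they compare these animals' cultures only. Slc15a2 (PEPT2), the high-affinity peptide carrier best known from kidney, had 64 and 86 counts in DMSO and GW3965 of mouse 1 and 1 count in each library of mouse 2. Scaled for depth, the summed counts of mouse 1 (150) were 79.3-fold those of mouse 2 (2), with an exact interval at 95% of 21.6 to 660 that covers counting error only. The fitted log2 difference was -6.16 ± 0.69 (SE, mouse 2 against mouse 1, edgeR adjusted p = 1.21e-15). Its coding transcript Slc15a2-201 had 48.8 and 59.4 estimated counts in mouse 1 and 0 in both libraries of mouse 2.

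The other members that differed between the mice were all higher in mouse 2. Slc15a1, the related intestinal peptide carrier at chr14:121459621-121505252 (minus strand), had 373 and 327 counts in DMSO and GW3965 of mouse 1 and 722 and 678 in mouse 2. Its log2 difference was 0.92 ± 0.23 (SE, edgeR adjusted p = 0.0137). Slc2a2, at chr3:28697903-28731359 (plus strand), had 495 and 325 counts in mouse 1 and 759 and 777 in mouse 2, a log2 difference of 0.85 ± 0.23 (SE, edgeR adjusted p = 0.0373). Slc5a11 (SMIT2), a sodium-coupled carrier of myo-inositol, had 66 and 40 counts in mouse 1 and 135 and 124 in mouse 2, a log2 difference of 1.24 ± 0.34 (SE, edgeR adjusted p = 0.0378). In each of these the gene totals of mouse 2 lay above those of both libraries of mouse 1, whatever the treatment. By transcript, Slc5a11-201 had 62.1 and 38.5 estimated counts in DMSO and GW3965 of mouse 1 and 65.2 and 78.5 in mouse 2. Slc5a11-207 had 0.215 and 0.0 in mouse 1 and 53.6 and 6.70 in mouse 2. This division between transcripts is an estimate. Slc15a2 alone was called by DESeq2 and by edgeR without the treatment covariate, and the other 3 were not. Slc5a8, next by p, had a log2 difference of 0.67 ± 0.26 (SE) and was not called (edgeR adjusted p = 0.599).

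**Figure D5:**
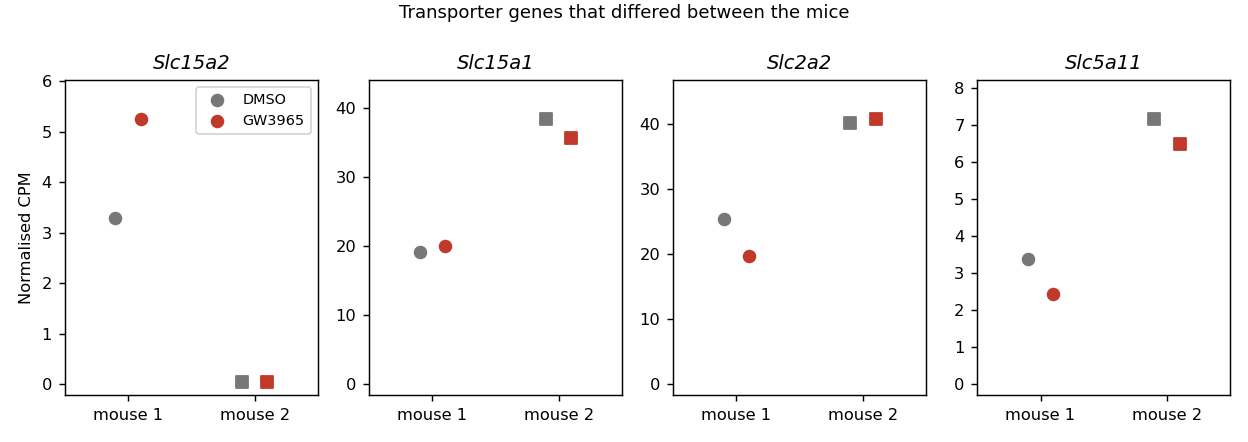
Normalised CPM of the 4 members called between the mice, by mouse (circles mouse 1, squares mouse 2) and treatment (grey DMSO, red GW3965). Slc15a2 is present in mouse 1 and near 0 in mouse 2, while Slc15a1, Slc2a2 and Slc5a11 are higher in mouse 2 under both treatments.

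The promoter windows of Slc15a1 and Slc2a2 are shown because these brush-border and basolateral carriers of dietary nutrients were both higher in mouse 2. They cover the 250 bases before the RefSeq start (GRCm38.p6), chr14:121505255-121505504 on the minus strand and chr3:28697653-28697902 on the plus strand. Capitals mark a GATA factor motif, TGATAA (here on the reverse strand), and the single nuclear receptor motif AGGTCA.
Slc15a1: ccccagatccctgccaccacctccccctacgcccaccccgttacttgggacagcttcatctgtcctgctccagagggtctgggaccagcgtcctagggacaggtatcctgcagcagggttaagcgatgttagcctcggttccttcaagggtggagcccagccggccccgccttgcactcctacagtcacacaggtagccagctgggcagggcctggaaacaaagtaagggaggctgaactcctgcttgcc
Slc2a2: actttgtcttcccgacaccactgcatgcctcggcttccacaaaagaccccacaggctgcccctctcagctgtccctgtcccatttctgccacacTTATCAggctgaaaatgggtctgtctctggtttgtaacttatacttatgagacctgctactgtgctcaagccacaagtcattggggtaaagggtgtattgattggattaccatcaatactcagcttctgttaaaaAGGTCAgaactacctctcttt
The 6 motifs searched, on both strands, were the DR4 repeat, the single copy of AGGTCA that overlaps it, the GATA motif, the HNF1 motif GTTAAT, the sterol regulatory element and the GC box. The single AGGTCA and the GATA motif were added after the window of Slc2a2 had been read, so their matches there are a description only. Of all windows, 14.0% held the single AGGTCA, 7.94% the GATA motif and 6.43% the HNF1 motif. The window of Slc15a1 held none of the 6. RefSeq windows were matched for 79 members, with 103 windows.

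Genes that work with these carriers did not pass the test with GW3965. None of the 10 tested partner genes, 12 amino acid response genes (Atf4 and its targets), 12 sugar handling genes, 16 vitamin handling genes or 8 regulators of intestinal transport was called with or without the block, beside 0.0588% and 0.353% of all genes. At an adjusted p under 0.05, 5 of 6 LXR target genes were higher without the block and 6 of 6 with it. Slc3a1 and Slc3a2 had log2 fold changes of -0.11 ± 0.25 and -0.05 ± 0.23 (SE), and Bsg of -0.08 ± 0.23 (SE). All 8 regulators had values below 0, from -0.24 to -0.02. Between the mice, 3 of the 12 sugar handling genes were called, all higher in mouse 2, beside 0.338% of all genes called higher: the brush-border lactase gene Lct, the trehalase gene Treh and the fructokinase gene Khk, with log2 differences of 1.75 ± 0.24, 1.29 ± 0.25 and 0.92 ± 0.23 (SE). Of the markers of other cells, 1 of 4 Paneth cell genes (Mmp7) and 2 of 10 immune genes (Gzma and Itgam) were called lower in mouse 2, beside 0.346% of all genes, Mmp7 and Gzma by log2 differences of -1.18 ± 0.25 and -0.93 ± 0.25 (SE). Itgam had 12 counts in each library of mouse 1 and 0 in both of mouse 2. Values of other immune markers lay on both sides of 0, such as 0.54 for Cd79a and -0.71 for Cd8a, and were not called. Their part in the differences between the transporters of the 2 mice was not tested.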

How the data were processed

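RNA-seq of 4 libraries was used. Each estimated count and TPM value per transcript was made by the authors with kallisto, per the file headers and the submitters' processing notes, which also name CASAVA 1.7, FastQC and mm10. Annotation release, strand setting and kallisto version: not given in the sources used here. A log2 CPM table deposited by the authors was not used because its processing is not stated. Here, 97.6% of 88198 transcripts were matched to GENCODE M21 (GRCm38). Estimated counts were summed per gene and rounded, and unmatched transcripts (0.69% to 0.85% of counts) were left out. Totals per library were 16430757 to 19352999.

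Genes were filtered with filterByExpr (minimum count 10), scaled by TMM and tested with edgeR 4.0.16 (quasi-likelihood, Benjamini-Hochberg over 13602 genes, threshold 0.05). DESeq2 1.42.0 and limma 3.58.1 were alternatives, beside other scalings, no filter, a mouse block and leaving out each library. The labels tie libraries with the same number to 1 mouse, so blocked results stand beside those of the main, unblocked model; the correlation of their deviations was 0.0925. CPM are TMM-scaled, and log2 differences per mouse used CPM + 0.5. Intervals are at 95% and cover the spread between these libraries only, since each group has 2. Every pair of libraries differed by more than sampling noise (chi-square over its degrees of freedom 10.5 to 77.6).

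Named members were those called with or without the block, the 10 smallest p, the 10 highest TPM, the 5 smallest p between mice, and carriers with a role in absorption. Members and lists were chosen with earlier results of these data known.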

Additional observations from a re-analysis of the deposited data

How the results depend on the processing

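With 2 libraries a group from 2 animals, the spread is weakly measured, and low-count members such as Slc5a6, Slc2a7 and Slc15a2 are the least certain. In fits that leave out a library the mice are unequally represented and a lone library is assumed to vary like the others. The count of all genes called with GW3965 (8) was 13 without scaling factors, 14 without a filter, 20 with the DESeq2 Wald test, 20 with limma-voom, 48 with the replicate block and 38 to 84 when 1 library was left out. The count of members called (0) was 1 without a filter, with DESeq2 and with the replicate block (each time Slc5a6), and 0 to 1 when 1 library was left out. Without DMSO replicate 1 the member was Slc15a2 (log2 fold change 5.45), whose vehicle value then came from mouse 2 alone. Without DMSO replicate 2 or GW3965 replicate 1 it was Slc5a6. The replicate block changed no other member's call. The count of members called between the mice (4) was 2 without scaling factors and 1 with DESeq2 or with no treatment covariate. Without a filter Slc2a2 was lost, with an adjusted p of 0.056 from edgeR. Over the 594 values of named members under an alternative, 531 kept direction and side of the threshold, 9 lost it, 6 gained it and 48, of 27 members, changed sign, none of the 48 past the threshold; the cause was not tested. Slc19a3, near 0, was at -0.00 with DESeq2, -0.02 without scaling factors, -0.01 with limma-voom and without a filter, and -0.03 with the replicate block in DESeq2. The other changes of sign came from leaving out 1 library, where the lowest and highest log2 fold changes were -0.53 to 0.53 for Slc15a1, -4.84 to 5.45 for Slc15a2, -0.30 to 0.16 for Slc19a1, -0.84 to 0.73 for Slc19a3, -0.26 to 0.10 for Slc1a1, -0.14 to 0.37 for Slc1a5, -0.13 to 1.10 for Slc23a1, -0.13 to 0.27 for Slc23a2, -0.47 to 0.18 for Slc2a1, -1.05 to 0.00 for Slc2a10, -0.73 to 0.31 for Slc2a2, -0.35 to 1.40 for Slc2a3, -0.08 to 0.37 for Slc36a1, -0.09 to 0.19 for Slc38a2, -0.15 to 0.46 for Slc38a6, -0.24 to 0.15 for Slc52a2, -0.48 to 0.13 for Slc52a3, -0.75 to 0.18 for Slc5a1, -1.11 to 0.40 for Slc5a11, -0.56 to 0.19 for Slc5a8, -0.21 to 0.51 for Slc6a19, -0.50 to 0.23 for Slc6a6, -0.57 to 0.29 for Slc7a1, -0.27 to 0.16 for Slc7a11, -0.35 to 0.11 for Slc7a5, -0.25 to 0.18 for Slc7a8, -0.13 to 0.07 for Slc7a9. The median log2 fold change of the members ran from -0.11 to 0.041 over the settings. Of 88 levels in DMSO under another scale, 34 moved by more than the spread between the libraries, and the 10 members with the highest TPM were the same 10 on TMM-scaled CPM per kilobase.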

Other observations

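Relatives whose symbols end in a further letter fall outside the rule for members and were looked at after the values were seen. The proline carrier gene Slc6a20a had 31.9 and 37.3 CPM in DMSO of mouse 1 and mouse 2 and 32.3 and 33.4 CPM with GW3965, and its near copy Slc6a20b had 1.80 and 2.44 CPM in DMSO and 3.84 and 1.31 CPM with GW3965. Slc5a4b, a relative of the glucose carrier Slc5a1, had 3.24 and 4.98 CPM in DMSO and 2.31 and 5.88 CPM with GW3965, and Slc5a4a had 5 and 13 counts in DMSO and 9 and 7 with GW3965. None was called by edgeR's quasi-likelihood test in either comparison. Reads of these near-identical pairs may be divided wrongly between the copies.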
